A study of Mus musculus with 6 samples.

Results

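The genes described here encode the heterogeneous nuclear ribonucleoproteins (hnRNPs), the RNA-binding motif (Rbm) proteins and the tissue-restricted splicing regulators of the Ptbp, Rbfox, Celf, Mbnl, Esrp, Khdrbs, Elavl and quaking families. Members were chosen by symbol alone: Hnrnp, Rbm followed by a digit or x, Rbfox, Celf, Mbnl, Ptbp, Esrp, Khdrbs, Elavl or Nova at the start of the symbol, or Qk. The rule found 75 genes of 16277 on the array and 1100 of its 229581 probe sets, the short probe groups that each report on a piece of an exon. No probe set with a single gene carried a Nova symbol. The study measured total liver RNA of untreated mice aged 1 month on 6 Affymetrix mouse exon arrays, 3 of mice with a hepatocyte knockout of Srsf3 (SRSF3HKO) and 3 of age-matched wild-type (WT) mice, which the series title calls littermates. Srsf3 encodes an SR protein, a class of splicing factors rich in serine and arginine. How the gene was deleted, and in which part, is not given in the sources used here. The labels speak of 3 SRSF3HKO mice but do not say whether the WT arrays were of separate animals, so a p-value here measures only the spread between these samples.

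Nuclear pre-mRNA is bound by hnRNPs as it is made, and several of them, like the polypyrimidine tract proteins, often keep nearby exons out of the mRNA, whereas SR proteins such as SRSF3 often promote inclusion. Muscleblind (Mbnl), Celf, Rbfox, Esrp and quaking proteins set splicing patterns that differ between tissues or between the newborn and the adult. In liver, ESRP2 is an epithelial splicing regulator known for the adult splicing programme of hepatocytes. Many genes of these families carry exons that send part of their own transcripts to nonsense-mediated decay, so the abundance of such a transcript and the exons it contains are separate measurements.

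Promoter sequence is shown for the members whose total signal changed, since these are the genes the comparison turns on. Of the 6, 3 were matched in the RefSeq promoter table (GRCm38.p6). Each line gives the 250 bases before the annotated start, 5′ to 3′ on the gene's strand, with capitals marking matches on either strand to the CCAAT box (CCAAT), the GC box (GGGCGG), the TATA box (TATAAA) or the core of the cAMP response element (TGACGT). The windows are chr2:11603200-11603449 on the minus strand for Rbm17, chr6:51469895-51470144 on the minus strand for Hnrnpa2b1 and chr14:120275419-120275668 on the plus strand for Mbnl2.
Rbm17: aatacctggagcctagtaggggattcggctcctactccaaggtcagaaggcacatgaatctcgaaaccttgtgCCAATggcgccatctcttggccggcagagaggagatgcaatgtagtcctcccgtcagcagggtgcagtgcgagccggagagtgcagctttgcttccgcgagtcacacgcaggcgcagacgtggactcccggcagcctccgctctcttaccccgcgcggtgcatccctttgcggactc
Hnrnpa2b1: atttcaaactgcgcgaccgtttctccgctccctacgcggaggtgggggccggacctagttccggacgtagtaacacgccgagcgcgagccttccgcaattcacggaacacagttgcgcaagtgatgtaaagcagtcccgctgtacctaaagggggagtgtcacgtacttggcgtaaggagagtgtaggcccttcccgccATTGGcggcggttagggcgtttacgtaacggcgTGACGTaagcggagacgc
Mbnl2: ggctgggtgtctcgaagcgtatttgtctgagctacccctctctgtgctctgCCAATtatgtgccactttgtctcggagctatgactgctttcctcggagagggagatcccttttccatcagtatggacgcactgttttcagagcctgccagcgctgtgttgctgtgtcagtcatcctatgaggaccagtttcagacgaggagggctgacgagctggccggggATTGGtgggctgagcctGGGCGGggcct
A CCAAT match lay 177 bases before the start in Rbm17, 51 bases before it on the opposite strand in Hnrnpa2b1, and 199 bases (same strand) and 28 bases (opposite strand) before it in Mbnl2. Hnrnpa2b1 also held TGACGT, the core of the cAMP response element, at 18 bases, and Mbnl2 held GGGCGG, the GC box, at 11 bases. Of the 60 members found in the table, 30 (50.0%) held CCAAT, against 34.5% of all 27025 windows of this length. GGGCGG was found in 28 members (46.7%, against 32.9%), TATAAA in 10 (16.7%, against 13.0%) and TGACGT in 11 (18.3%, against 6.6%). The median GC content was 58.8% over the members' windows and 52.0% over all windows. These matches describe letters only, and the array holds no measurement of binding.

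Values are the deposited intensities after log2(intensity + 16). A gene's level is the median over its probe sets, and changes are SRSF3HKO minus WT. The arrays' median intensities were close, from 75.3 to 89.6. Srsf3 itself measured 9.79, 9.24 and 9.35 in WT and 10.30, 9.10 and 9.78 in SRSF3HKO, with a change of 0.26 ± 0.31 (SE, limma adjusted p = 0.626). Of its 13 tested probe sets, 6 were higher and none was lower, so the array's total signal for Srsf3 does not check the genotype labels. Macrophage markers were highest on SRSF3HKO replicate 1: the mean over 7 markers was 8.31 to 8.46 in WT and 11.12, 8.48 and 8.66 in SRSF3HKO replicates 1, 2 and 3. Of those 7, 3 (Cd68, Marco and Vsig4) lay above every WT array on every knockout array, and the other 4 did not. Marco measured 6.40, 6.26 and 6.38 in WT and 11.15, 8.43 and 7.81 in SRSF3HKO and was called higher; none was called lower. The part of these markers in the results on members was not tested. All 6 hepatocyte markers measured were detected, and none passed the test. Elsewhere 1 erythroid marker of 3 tested (Alas2), 1 endothelial marker of 6 (Kdr) and 1 neuronal marker of 2 (Syt1) were lower, and no cholangiocyte, lymphocyte or stellate marker passed. Of the 5 neuronal markers on the array, 3 lay below the floor that marks detection. The Y-linked gene Eif2s3y measured 8.62, 8.36 and 4.18 in WT and 4.16, 4.17 and 8.99 in SRSF3HKO, high on 2 arrays of the first group and 1 of the second. Kdm5d, also Y-linked, was high on the same arrays (6.75, 6.13 and 4.26 in WT, 4.69, 4.44 and 6.55 in SRSF3HKO). Male signal, and so sex, was thus unbalanced between the groups. The part of sex in the results on members was not tested beyond fits with this signal as a covariate. In bulk tissue, fewer cells of a type and less RNA per cell cannot be told apart.

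Most members were present in liver, and few changed in total signal. A gene was tested where it averaged more than 5.35 across all arrays, which is the 90th percentile of genes for olfactory, vomeronasal and taste receptors, taken here as background for liver. This left 67 of the 75 members. The 8 below it were Celf3, Elavl2, Elavl3, Elavl4, Esrp1, Khdrbs2, Rbfox1 and Rbm11, of which Elavl2 to Elavl4, Celf3 and Rbfox1 are best known from neurons and Esrp1 from other epithelia. Of the 67, 5 were higher (7.46%) and 1 was lower (1.49%) at a limma adjusted p under 0.05. Over all 11709 genes tested, 6.85% were higher and 5.03% lower, 11.9% in all, so the share of members called was close to the background. The median change was 0.26 for members and 0.08 for all genes tested. The sign was positive in 49 members (73.1%), against 57.4% of all genes. In 26 members (38.8%) every SRSF3HKO array lay above every WT array, against 21.6% of all genes, and in 6 (8.96%) below, against 14%. Taken singly, SRSF3HKO replicates 1, 2 and 3 had 45, 37 and 36 of 67 members above all WT arrays (67.2%, 55.2% and 53.7%). The shares over all genes were 44.7%, 42.2% and 39.1%. Below all WT arrays lay 10, 15 and 15 members (14.9%, 22.4% and 22.4%, against 28.6%, 33% and 31.1%). These counts use the same WT arrays and include the 26 and the 6 members above, so they are not separate evidence. Between arrays of a group, members had a median SD of 0.155 in WT and 0.226 in SRSF3HKO, against 0.187 and 0.291 for all genes. Members were also brighter, with medians by array of 8.02 to 8.61, against 7.07 to 7.40 for all genes tested. The part of level and spread in the differing shares was not tested.

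**Figure D1:**
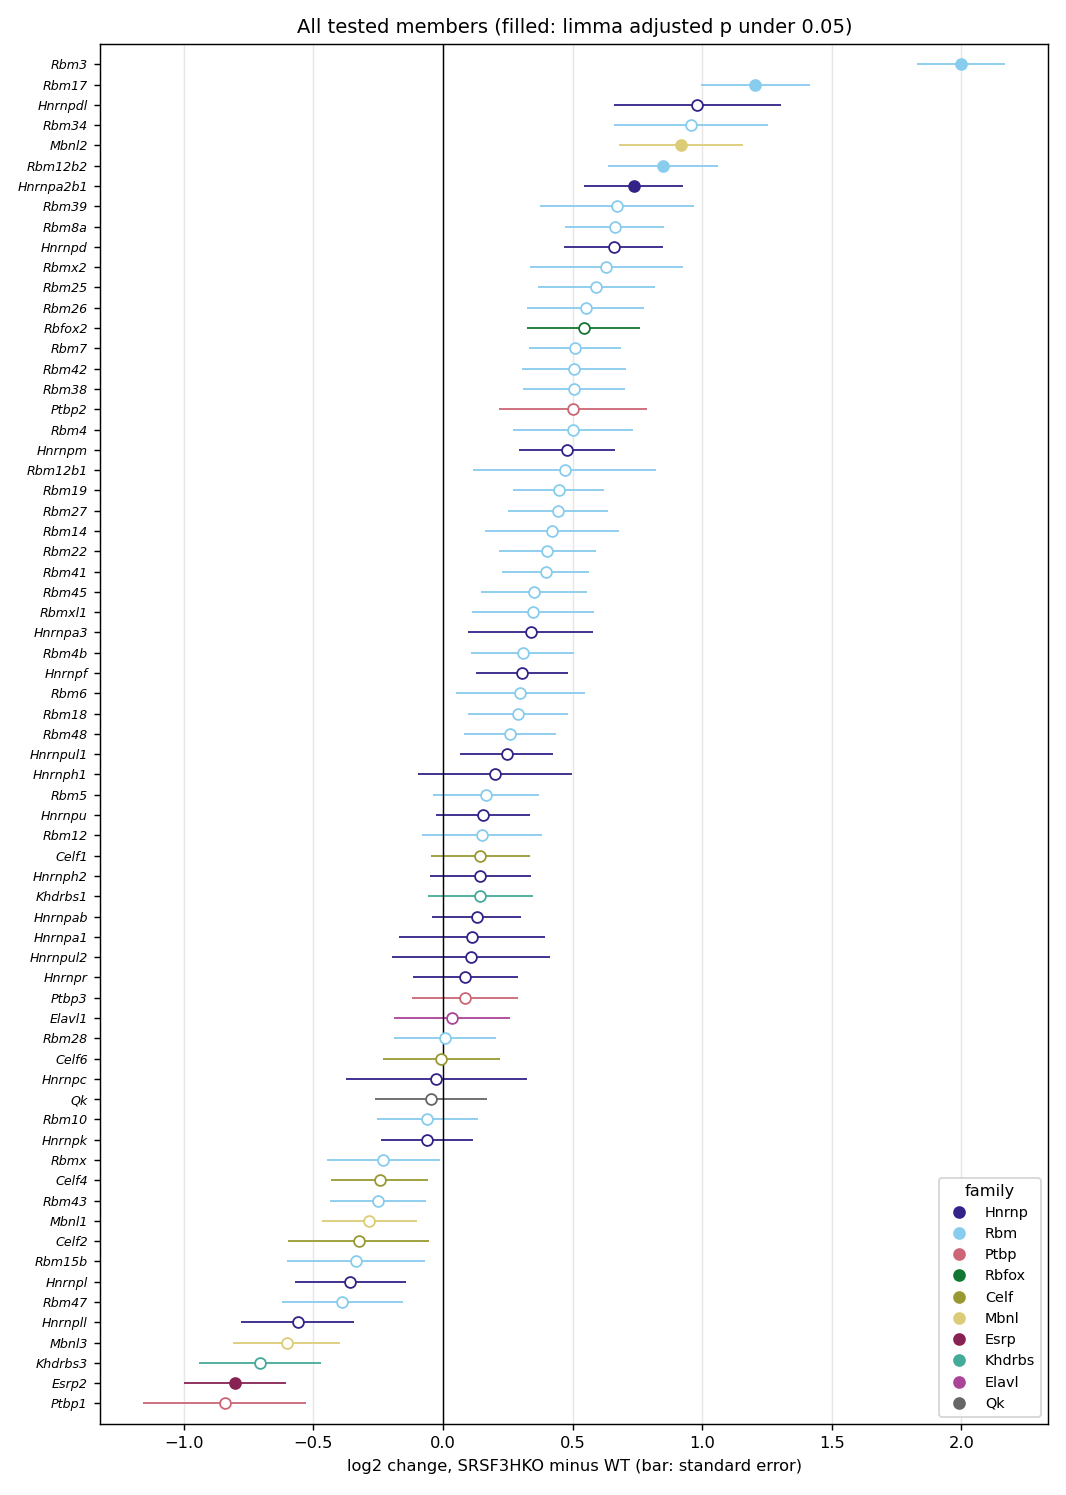
Log2 change (SRSF3HKO minus WT) of the 67 tested members, one gene per line, with bars for the standard error and colours for the symbol family; filled points passed a limma adjusted p under 0.05. Most points lie right of 0 (49 of 67), but only 5 higher genes and 1 lower gene are filled, with Rbm3 far to the right at 2.00.

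The Rbm family, with 33 of the 67 tested members, held 28 of the 49 positive changes. Of its 34 members 33 were tested, and 3 rose (9.09%, against 6.85% of all genes) and none fell, a share near the background. The change was positive in 28 (84.8%, against 57.4%), with a median of 0.42, and in 18 the knockout arrays all lay above the WT arrays (54.5%, against 21.6%). Rbm3, a cold-inducible RNA-binding protein that promotes translation, rose most. It measured 9.87, 9.88 and 9.90 in WT and 12.05, 11.90 and 11.70 in SRSF3HKO. WT arrays were nearly identical, and each knockout array lay far above them. The change was 2.00 ± 0.17, or 3.997-fold (limma adjusted p = 0.000941), and all 13 of its probe sets were called higher, by 1.70 to 2.21. Rbm17, which encodes the splicing factor SPF45 that acts at 3′ splice sites, measured 9.44, 9.49 and 9.77 in WT and 10.89, 10.98 and 10.44 in SRSF3HKO. The groups were well separated, with a rise of 1.20 ± 0.21 (2.30-fold, limma adjusted p = 0.0124). All 12 probe sets were positive and 7 were called. Its adjusted p was 0.0754 without WT replicate 1 and 0.0702 without WT replicate 2. Rbm12b2 measured 7.41, 6.87 and 7.37 in WT and 8.19, 7.996 and 8.02 in SRSF3HKO, with a rise of 0.85 ± 0.21 (limma adjusted p = 0.0388). This value is uncertain, because it rests on 2 probe sets while 13 others match several genes, and Rbm12b1 is a near-identical copy. The call ended without any single array other than SRSF3HKO replicate 2 (adjusted p 0.0741 to 0.127) and with the signal of Y-linked genes as a covariate (0.0947).

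**Figure D2:**
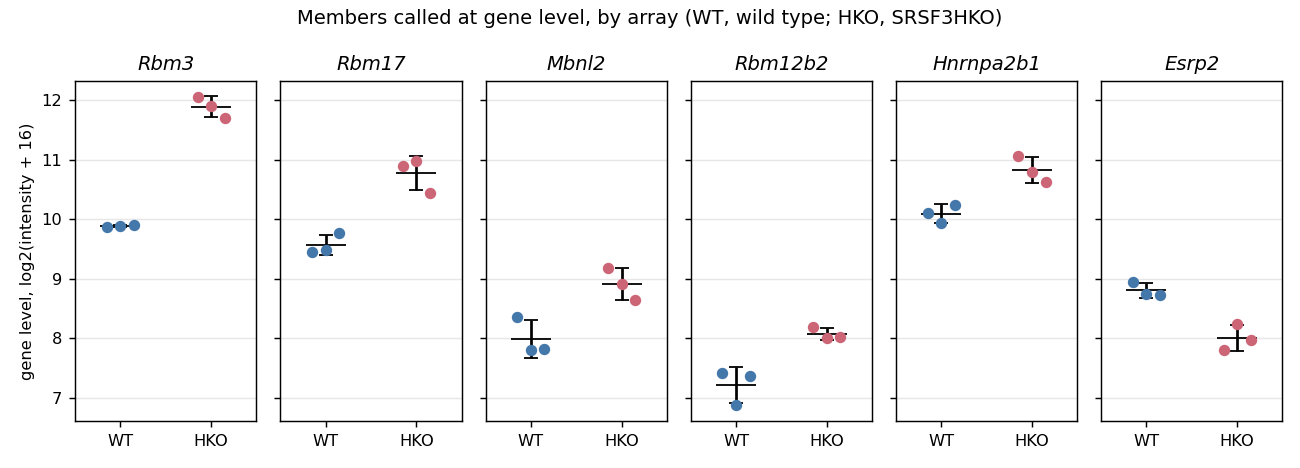
Gene level, log2(intensity + 16), of the 6 members called at gene level on each array (points), with the mean and SD of the 3 WT and the 3 SRSF3HKO (HKO) arrays in black. No WT point overlaps an SRSF3HKO point in any panel; Rbm3 has the widest gap and Esrp2 is the only one that is lower in SRSF3HKO.

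Other Rbm genes did not pass the test on total signal. Rbm39, a cofactor related to the splicing factor U2AF, measured 9.53, 9.10 and 9.50 in WT and 9.93, 10.67 and 9.55 in SRSF3HKO. The highest value came from SRSF3HKO replicate 2, and replicate 3 lay just above the WT arrays (0.67 ± 0.30, limma adjusted p = 0.178). All 20 of its probe sets were positive, and none was called. Rbm5 and Rbm10, related regulators of exon inclusion in apoptosis genes, overlapped between groups. Rbm5 measured 8.03, 7.70 and 8.10 in WT and 8.31, 7.98 and 8.03 in SRSF3HKO (0.16 ± 0.20, limma adjusted p = 0.638). Rbm10 measured 7.45, 7.20 and 7.29 in WT and 7.31, 7.02 and 7.44 in SRSF3HKO (-0.06 ± 0.20, limma adjusted p = 0.875). Rbm47, a splicing regulator and a cofactor of apolipoprotein B mRNA editing, measured 9.08, 9.17 and 9.54 in WT and 8.95, 8.52 and 9.16 in SRSF3HKO (-0.39 ± 0.23, limma adjusted p = 0.310). Rbm8a, the exon junction complex subunit Y14, is named after its values were seen, as is Rbm7 of the nuclear exosome targeting complex. The first measured 8.50, 8.58 and 8.58 in WT and 9.37, 8.97 and 9.31 in SRSF3HKO, and missed the threshold at 0.66 ± 0.19 (limma adjusted p = 0.0587), which it passed under 3 alternatives, among them without SRSF3HKO replicate 2 (0.79). Rbm7 measured 8.61, 8.43 and 8.66 in WT and 9.06, 9.14 and 9.04 in SRSF3HKO (0.51 ± 0.18, limma adjusted p = 0.0987).

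Among the 18 hnRNP genes, all tested, 1 rose (5.56%, against 6.85% of all genes) and none fell, again near the background. The change was positive in 14 (77.8%, against 57.4%), and the median was 0.15. In 6 the knockout arrays all lay above the WT arrays (33.3%, against 21.6% of all genes), and in 1 below (5.56%, against 14%). Hnrnpa2b1, whose protein represses exons and sorts RNAs, measured 10.11, 9.93 and 10.24 in WT and 11.06, 10.80 and 10.63 in SRSF3HKO. It rose by 0.74 ± 0.19 (1.67-fold, limma adjusted p = 0.0434), with 5 of 17 probe sets called higher and 12 separated between groups. The call ended without any WT array or without SRSF3HKO replicate 1, the array with the highest macrophage markers (adjusted p 0.101 to 0.156), with the Y-linked covariate (0.105), with no filter on low values (0.0572) and with median polish (0.0524). The part of the macrophage and Y-linked signals in this result was not tested beyond these fits. Its relative Hnrnpa1 had a single usable probe set, as 17 others match several genes. That probe set measured 9.37, 10.13 and 9.82 in WT and 10.28, 9.94 and 9.43 in SRSF3HKO, fully overlapping (0.11 ± 0.28, limma adjusted p = 0.830). Hnrnpk, a poly(C)-binding hnRNP, measured 11.48, 11.26 and 11.46 in WT and 11.38, 11.51 and 11.12 in SRSF3HKO (-0.06 ± 0.18, limma adjusted p = 0.854). Hnrnpu, a scaffold attachment protein, measured 10.78, 10.70 and 10.79 in WT and 11.04, 11.04 and 10.65 in SRSF3HKO (0.15 ± 0.18, limma adjusted p = 0.622). The sign of Hnrnpk turned with quantile normalization (0.02), and that of Hnrnpa1 with the Y-linked covariate (-0.02). Hnrnpd and Hnrnpll are named after their values were seen. Hnrnpd, which encodes the AU-rich element binding protein AUF1, measured 9.21, 8.80 and 9.19 in WT and 9.75, 9.73 and 9.70 in SRSF3HKO (0.66 ± 0.19, limma adjusted p = 0.0587), and 5 of its 13 probe sets were called higher. It passed under 5 alternatives (adjusted p 0.0332 to 0.0498), among them without SRSF3HKO replicate 2. Hnrnpll, the relative of hnRNP L known for exon skipping in the CD45 transcript, was the single hnRNP gene whose knockout arrays all lay below WT: 8.49, 7.93 and 8.39 against 7.51, 7.79 and 7.83 (-0.56 ± 0.22, limma adjusted p = 0.134).

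The tissue regulators moved in different directions. Esrp2 measured 8.94, 8.74 and 8.72 in WT and 7.80, 8.23 and 7.97 in SRSF3HKO. It fell by 0.80 on the log2 scale with an SE of 0.20 (limma adjusted p = 0.0374). Of its 19 tested probe sets 18 were negative, 15 lay wholly below WT and 6 were called lower. The call ended without any single array other than SRSF3HKO replicate 2 (adjusted p 0.0794 to 0.154) and with the Y-linked covariate (0.0907). Its paralog Esrp1 lay below the detection floor in both groups, and the 6 cholangiocyte markers averaged 6.04 to 6.54 in WT and 6.44 to 6.87 in SRSF3HKO. These markers did not move together. Of the 5 tested, 4 had positive changes, from 0.11 (Sox9) to 1.56 (Spp1), and Krt19 had -0.31. The part of cholangiocytes in the Esrp2 result was not tested. Mbnl2, a muscleblind protein, rose: it measured 8.36, 7.80 and 7.82 in WT and 9.18, 8.91 and 8.64 in SRSF3HKO, with a change of 0.92 ± 0.24 (1.89-fold, limma adjusted p = 0.0439). All 11 probe sets were positive, 10 were separated between groups and 5 were called. The call ended without any WT array, without SRSF3HKO replicate 1 (adjusted p 0.0787 to 0.158), with array weights (0.0532), with no filter on low values (0.0565) and with the Y-linked covariate (0.0976). Mbnl1, the main muscleblind relative in many adult tissues, measured 9.14, 9.09 and 9.33 in WT and 9.05, 8.87 and 8.79 in SRSF3HKO. All its knockout arrays were lower than WT, by a small margin that missed the threshold (-0.28 ± 0.18, limma adjusted p = 0.345). Mbnl3, named after its values were seen, was at 5.82 in WT and 5.22 in SRSF3HKO, below the floor in the latter, which makes it at least 1.39-fold lower (limma adjusted p = 0.0963, and 0.0266 with the mean over probe sets). The average of Mbnl3 over all arrays passed the floor only through the WT arrays, so its p-values add no support. Celf1, the best known antagonist of muscleblind proteins, measured 9.50, 9.25 and 9.39 in WT and 9.32, 9.72 and 9.52 in SRSF3HKO (0.14 ± 0.19, limma adjusted p = 0.661). None of the 4 tested Celf genes had separated groups, against 35.6% of all genes with separation in either direction. A family of 4 is too small to set against that share.

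Ptbp1, the polypyrimidine tract protein of most non-neuronal cells, measured 9.32, 9.15 and 9.44 in WT and 8.61, 9.02 and 7.75 in SRSF3HKO. Every knockout array was lower, but they spread widely, with replicate 3 far below replicate 2. The change was -0.84 ± 0.31 (limma adjusted p = 0.120), and all 20 tested probe sets were negative. It passed the threshold without SRSF3HKO replicate 2 (-1.12) and with array weights (-1.10). Without SRSF3HKO replicate 3 the fall was smaller, at -0.49 (limma adjusted p = 0.220). Ptbp2, its neuronal paralog and a known target of Ptbp1 repression, measured 6.95, 6.59 and 7.20 in WT and 7.17, 7.98 and 7.11 in SRSF3HKO. Its highest value came from replicate 2, and the groups overlapped (0.50 ± 0.29, limma adjusted p = 0.285). Ptbp3 measured 9.53, 9.36 and 9.71 in WT and 9.70, 9.82 and 9.34 in SRSF3HKO (0.08 ± 0.20, limma adjusted p = 0.825), a change whose sign turned with array weights (-0.03). Rbfox2, which binds GCAUG motifs, measured 8.30, 7.82 and 7.86 in WT and 8.77, 8.36 and 8.48 in SRSF3HKO; the groups did not overlap (0.54 ± 0.22, limma adjusted p = 0.141). Khdrbs1, or Sam68, measured 8.15, 8.01 and 8.37 in WT and 8.54, 8.29 and 8.14 in SRSF3HKO (0.14 ± 0.20, limma adjusted p = 0.686). Its relative Khdrbs3, best known from brain and testis, measured 8.27, 8.16 and 8.29 in WT and 7.50, 7.16 and 7.95 in SRSF3HKO. The knockout arrays were all lower (-0.71 ± 0.23, limma adjusted p = 0.0876), and the change passed without SRSF3HKO replicate 3 (-0.91, adjusted p = 0.0470). Qk measured 8.27, 8.02 and 8.61 in WT and 8.43, 8.16 and 8.18 in SRSF3HKO (-0.05 ± 0.22, limma adjusted p = 0.913). Elavl1, the mRNA-stabilising protein HuR, measured 8.94, 9.02 and 8.90 in WT and 9.24, 8.58 and 9.15 in SRSF3HKO (0.04 ± 0.22, limma adjusted p = 0.934). The Qk knockout values lay within the WT range and those of Elavl1 on both sides of it, and the signs turned under median polish (0.01 and -0.01).

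Single probe sets added genes that the gene median did not call. Of the 943 member probe sets above the probe-set floor of 5.62, 62 were called higher (6.57%) and 11 lower (1.17%), where all 157861 probe sets gave 4.73% and 4.32%. Without overlap between groups were 290 higher (30.8%, against 18.3%) and 73 lower (7.74%, against 13.5%). The called probe sets fell in 21 genes, 17 with higher ones and 4 with lower ones: Esrp2, Ptbp1, Khdrbs3 and Rbm47. The share of all genes with a called probe set was not computed, so these gene counts only say where the calls lay. Among genes not called on total signal, Rbm34 had 4 higher probe sets. Probe set 5514073 had intensities at 13.0, 14.1 and 10.9 in WT and 124, 36.4 and 110 in SRSF3HKO. WT lay below the floor, so the rise has only a lower bound, 1.97-fold (limma adjusted p = 0.0269). This probe set is counted among the 4. Its average over all arrays passed the probe-set floor only through the SRSF3HKO arrays, so its p-value adds no support. A second Rbm34 probe set, 5253387, read 140, 104 and 160 in WT and 512, 246 and 529 in SRSF3HKO, and all 14 of the gene were positive. The gene change was 0.96 ± 0.30 (limma adjusted p = 0.0724), which passed under 4 alternatives, among them without SRSF3HKO replicate 2 (1.25). SRSF3HKO replicate 2 was the lowest knockout array in both. In Rbm26, a protein tied to nuclear RNA decay, probe set 5040781 read 71.0, 56.6 and 76.6 in WT and 260, 274 and 165 in SRSF3HKO, with a change of 1.54 (limma adjusted p = 0.0104). In Rbm25, a spliceosome-associated regulator, probe set 4543161 read 119, 57.9 and 119 in WT and 290, 201 and 222 in SRSF3HKO. It was 1 of 6 Rbm25 probe sets called higher among 19 that were all positive. In Rbm19, a factor of ribosomal RNA processing, probe set 5476739 read 187, 114 and 162 in WT and 412, 324 and 344 in SRSF3HKO (1.16 ± 0.25, limma adjusted p = 0.0236).

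The lower probe sets outside Esrp2 came from 3 genes. Ptbp1 probe set 4566546 read 571, 684 and 615 in WT and 232, 383 and 188 in SRSF3HKO (-1.23 ± 0.28, limma adjusted p = 0.0288). The other called one, 4953025, read 743, 811 and 811 against 477, 448 and 292. SRSF3HKO replicate 3 was the lowest array in both, as in the gene median. Khdrbs3 probe set 5197741 read 386, 308 and 530 in WT and 138, 114 and 238 in SRSF3HKO (-1.27 ± 0.31, limma adjusted p = 0.0392). Khdrbs3 probe set 5281573 read 418, 325 and 545 against 153, 167 and 224. Both had every knockout array below every WT array. The Rbm47 probe set 5168818 read 1130, 903 and 1136 in WT and 611, 381 and 571 in SRSF3HKO. It changed by -1.02 where the gene median changed by -0.39. The exon usage test described below did not call Rbm47 (diffSplice gene adjusted p = 0.488).

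**Figure D3:**
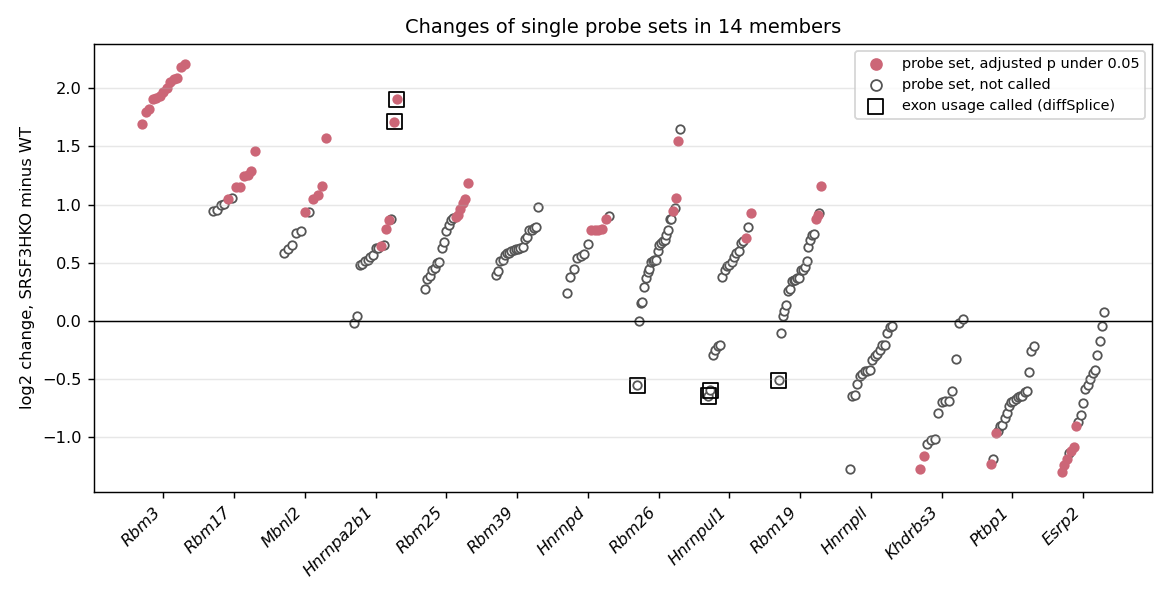
Log2 change (SRSF3HKO minus WT) of every tested probe set in 14 members; filled points passed a limma adjusted p under 0.05 and squares mark an exon usage call. All 13 Rbm3 points are filled near 2, all 20 Ptbp1 points lie below 0 with 2 filled, and Hnrnpa2b1, Hnrnpul1, Rbm19 and Rbm26 carry points set apart from the rest of their gene.

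Exon usage was then compared, that is, whether a probe set changed differently from the other probe sets of its gene. With limma's diffSplice, 3 of 70 members with at least 3 tested probe sets were called (4.29%, against 5.83% of all 12255 genes), and 6 of 935 member probe sets (0.642%, against 0.666%). The members were thus called about as often as other genes. In Hnrnpa2b1 (gene adjusted p = 0.00911) 2 probe sets rose more than the rest. Probe set 4692397 read 257, 116 and 236 in WT and 944, 588 and 806 in SRSF3HKO, with a usage change of 1.28 (diffSplice adjusted p = 0.00613). Relative to the gene level it stood at -2.02, -2.88 and -2.26 in WT and -1.15, -1.56 and -0.95 in SRSF3HKO, so it remained the dimmer piece but less so in the knockout. Probe set 5200003 read 514, 419 and 414 in WT and 2118, 1012 and 1569 in SRSF3HKO, with a usage change of 1.08 (diffSplice adjusted p = 0.0371).

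In Hnrnpul1, an hnRNP U-like protein (gene adjusted p = 0.0163), total signal lay slightly above WT on every knockout array (0.25 ± 0.18, limma adjusted p = 0.408), and 2 probe sets were called higher. Probe set 4754200 went the other way, at 537, 568 and 599 in WT and 455, 310 and 323 in SRSF3HKO, with a usage change of -0.99 (diffSplice adjusted p = 0.0101). Probe set 5433884 had a usage change of -0.94 (diffSplice adjusted p = 0.0181), but its intensities, 403, 518 and 333 in WT and 130, 454 and 314 in SRSF3HKO, overlapped, and replicate 1 was the lowest. In Rbm19 (gene adjusted p = 0.0155) probe set 5399897 had a usage change of -0.99 (diffSplice adjusted p = 0.00804). It read 846, 802 and 684 in WT and 413, 717 and 529 in SRSF3HKO, which overlapped. Of 24 Rbm19 probe sets, 22 had a positive change. In Rbm26 probe set 5216141 had a usage change of -1.22 (diffSplice adjusted p = 0.0368), although the gene as a whole was not called (diffSplice gene adjusted p = 0.0730). Its intensities, 341, 251 and 273 in WT and 270, 172 and 146 in SRSF3HKO, also overlapped. Tested instead as a splicing index, the probe set minus the gene level on each array, none of these 6 passed (limma adjusted p 0.199 to 0.478), and that test called 0.0168% of all probe sets. The position of a probe set within its transcript was not used here, so no exon is named.

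**Figure D4:**
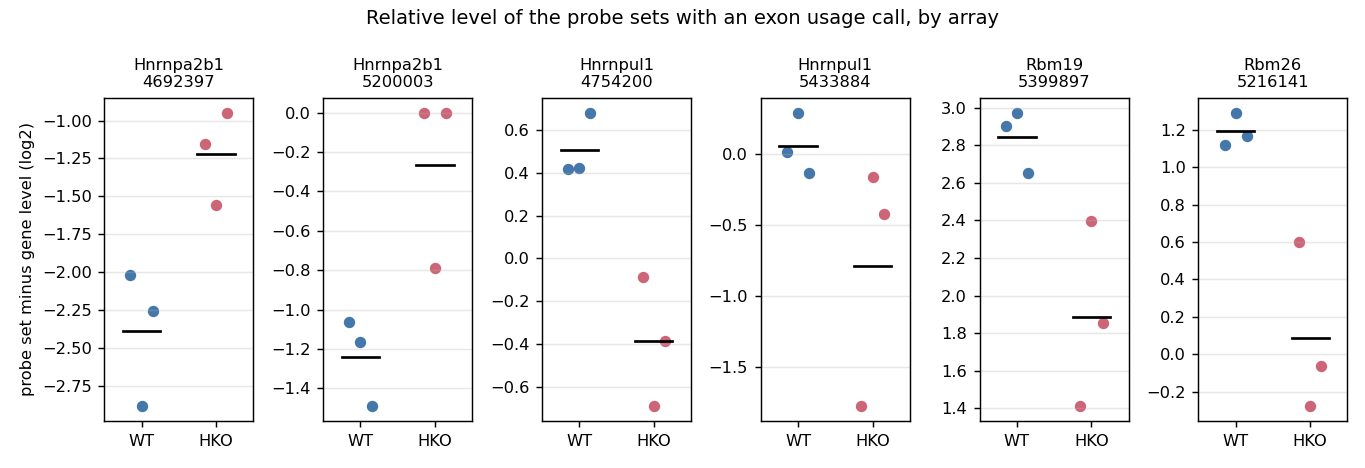
Level of the 6 probe sets with an exon usage call relative to their gene's level (log2 difference) on each array, with bars at the mean of 3 WT and 3 SRSF3HKO (HKO) arrays. In every panel the WT and SRSF3HKO points are separate. The probe sets were picked by a test of this same difference, so the separation is not added evidence. Those of Hnrnpa2b1 are relatively higher in SRSF3HKO, and those of Hnrnpul1, Rbm19 and Rbm26 relatively lower.

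Lists of other splicing genes had positive median changes and no lower calls. Over all genes tested the median was 0.08, with 11.9% called and 5.03% called lower. Lists of 6 or 11 genes are too short to set against those shares. Of 11 SR protein genes tested, none passed (median change 0.33), and of 6 kinases of SR proteins none passed (0.28). Among 35 core spliceosome genes 3 rose (8.57%, against 6.85% of all genes) and none fell (median 0.44). Sf3b2, a subunit of the U2 particle, went from 8.01 to 8.79 (limma adjusted p = 0.0307), and Snrpb2, the U2 B″ protein, from 8.69 to 9.61 (limma adjusted p = 0.0414). None of the 6 nonsense-mediated decay genes tested passed (0.48). Among 27 further splicing regulators 3 rose (11.1%) and none fell, with a median of 0.09, near that of all genes. Srrm1, a splicing coactivator rich in serine and arginine, went from 7.67 to 9.13, a rise of 1.45 ± 0.21 (limma adjusted p = 0.00638). Cirbp, the cold-inducible RNA-binding protein related to Rbm3, went from 7.63 to 9.55, a rise of 1.92 ± 0.33 (limma adjusted p = 0.0122).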

How the data were processed

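Liver RNA was measured on 6 exon arrays. PLIER and Affymetrix Expression Console made the core exon values, per the submitters' processing notes. The deposited values are linear intensities per probe set, and versions and background step are not given in the sources used here. Genotype came from the labels; replicate numbers follow sample order. Symbols were updated through RefSeq gene tables, which brought in 11 of the members. Probe sets of several genes were left out. Values became log2(intensity + 16), and a gene's level was the median over its probe sets. Features above the 90th percentile of receptor genes were tested with limma 3.58.1 in R 4.3.3 (lmFit, eBayes with trend), Benjamini-Hochberg adjusted over all features tested. Exon usage used diffSplice, which assumes 1 spread per gene. The members, lists and tests were chosen with earlier results of these data known. Named in full were called members, the brightest of each family, a chosen list of well-known regulators, members with a usage call, and the 8 largest called probe sets elsewhere. With 3 arrays a group, their number limits precision. Alternatives covered pseudocount, scaling, filter, weights, variance model, summary, Y-linked covariate and leaving out each array.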

Additional observations from a re-analysis of the deposited data

How the results depend on the processing

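Rbm3 was called under all 19 alternatives (log2 change 1.92 to 2.09), Rbm17 under 16, Esrp2 and Rbm12b2 under 12 each, and Hnrnpa2b1 and Mbnl2 under 11 each; none of these 6 changed sign. Members outside these 6 that passed under some alternative were Hnrnpd (5), Rbm34 (4), Rbm8a (3), Ptbp1, Rbm4 and Rbm41 (2 each), and Khdrbs3 and Mbnl3 (1 each). The counts moved more. Against 5 members higher and 1 lower, 62 and 11 probe sets, and exon usage calls in 3 genes and 6 probe sets, no filter on low values gave 3 members higher and 41 and 3 probe sets. A filter at the median gave 5 genes with a usage call, and eBayes without trend 7 lower probe sets. Array weights gave 8 and 2 members, 99 and 36 probe sets, and usage calls in 8 genes and 13 probe sets. An adjusted p under 0.01 gave 1 and 0 members, 16 and 0 probe sets, and usage calls in 1 gene and 2 probe sets. The Y-linked covariate gave 2 and 0 members, 23 and 1 probe sets, and usage calls in 1 gene and 2 probe sets. The mean over probe sets gave 8 and 2 members, and the splicing index 0 genes and 0 probe sets. Leaving out single arrays gave 1 to 9 members higher, 0 to 2 lower, 15 to 102 probe sets higher, 0 to 31 lower, and usage calls in 0 to 10 genes and 0 to 14 probe sets, the highest each without SRSF3HKO replicate 2 and the lowest each without WT replicate 2. The cause was not tested.

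Changes near 0 turned sign. Elavl1 was -0.0345 with quantile normalization, -0.0179 with median centring, -0.00342 with the mean and -0.0121 with median polish. Hnrnpk was 0.0215 with quantile normalization and 0.0250 with the mean, Qk 0.0135 with median polish, Ptbp3 -0.0303 with array weights and -0.0114 with the Y-linked covariate, and Hnrnpa1 -0.0174 with that covariate. With single arrays left out, Hnrnpa1 ranged from -0.0881 to 0.341, Rbm10 from -0.150 to 0.0571, Ptbp3 from -0.0147 to 0.226, Qk from -0.186 to 0.108, Elavl1 from -0.0893 to 0.242 and Hnrnpk from -0.147 to 0.0450. No paired analysis was possible because replicate numbers only follow sample order. Members near the floor have only a bound.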
